A study of Homo sapiens with 6 samples.

Results

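The 77 genes described here encode Golgi glycosyltransferases, the enzymes that build sugar chains on proteins and lipids, and were chosen by gene symbol from the 61806 genes of the deposited table. The symbols are those of the GALNT, MGAT, B4GALT, B3GALT, B3GNT, ST3GAL, ST6GAL, ST6GALNAC, ST8SIA and FUT families, with 18, 8, 7, 5, 8, 6, 2, 6, 6 and 11 members. RNA was measured by poly(A) sequencing in A549, a human lung adenocarcinoma cell line labelled wild type, in 3 libraries after 24 h of Japoflavone B and 3 after 24 h of its solvent DMSO. All cells had been seeded 24 h before treatment. The Japoflavone B dose is given as 40 without a unit, and these libraries are titled LE-532, a code the labels do not explain. Whether the 3 libraries of a group came from separate cultures is not stated, and the p-values then cover only the spread among these 3 libraries per group, which may be technical. The series title calls Japoflavone B a PARP1 inhibitor that triggers pyroptosis, and the comparison asks how mRNA levels differed from those of solvent-treated cells.

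Libraries held 15298531 to 21744407 gene counts, and log2 CPM (counts scaled to a common library total) correlated at 0.990 to 0.992 within groups and 0.926 to 0.931 between them. Mitochondrial genes took 8.33% to 8.58% of counts after Japoflavone B and 3.97% to 4.70% after DMSO. The 5 epithelial markers summed to 558 to 593 FPKM after Japoflavone B and 1144 to 1311 FPKM after DMSO, and KRT7, KRT8, KRT18 and CDH1 were called lower. EPCAM, a defining epithelial surface gene, was low in both groups (0.673 ± 0.11 FPKM after Japoflavone B and 0.907 ± 0.15 after DMSO; SD, n = 3). Summed leukocyte markers came to 0.270 to 0.510 FPKM after Japoflavone B and 2.12 to 3.02 FPKM after DMSO. CD14 made up 0.15, 0.39 and 0.40 FPKM of it after Japoflavone B, against 2.07, 2.51 and 3.02 after DMSO, and CD3E was at 0 counts. Endothelial markers summed to at most 0.07 FPKM in any library, with VWF and KDR at 0 counts. Fibroblast markers summed to 0.610 to 0.790 FPKM after Japoflavone B and 4.59 to 5.26 FPKM after DMSO, most of it COL1A1. The part of these marker changes in the results below was not tested.

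Glycosyltransferases act in order along the secretory pathway. GALNT enzymes attach N-acetylgalactosamine (GalNAc) to serine or threonine and start mucin-type O-glycans, whereas MGAT enzymes add N-acetylglucosamine (GlcNAc) to the trimmed mannose core of N-glycans and set the number of branches. B4GALT, B3GALT and B3GNT enzymes extend these chains with galactose and GlcNAc, and sialyltransferases and fucosyltransferases cap them with sialic acid or fucose. Lung epithelium is known for abundant mucins and a sialylated cell surface, and adenocarcinomas are known for altered branching and capping.

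Of the 77 genes, 58 passed the filter on low counts and 19 did not. The groups of a gene were compared with edgeR's quasi-likelihood test, adjusted by Benjamini-Hochberg over all 16082 genes tested, and a gene is called at an adjusted p under 0.05. Among the 58, 15 were called higher and 26 lower after Japoflavone B, and 17 were not called. Leaving the mitochondrial genes out of the fit also gave 15 higher and 26 lower. Over all genes tested, 34.7% were called higher and 35.4% lower, together 70.0%. The members' shares were 25.9% and 44.8%. A change of at least 2-fold was called in 8 members upward and 12 downward, 13.8% and 20.7%, beside 9.67% and 15.0% of all genes tested. The median log2 fold change was -0.16 over the 58 and 0.00 over all genes tested. The members' median was -0.28 without Japoflavone B replicate 3, -0.27 without DMSO replicate 3 and -0.26 with library totals. FPKM of the groups did not overlap in 43 of the 58, or 74.1%, where 71.6% of all genes tested did not overlap. Of the 58, 50 reached the count level of the filter in every library of both groups. FUT1 and FUT3 reached it after Japoflavone B only, and B3GALT4, B3GALT5, FUT2, MGAT3 and ST6GALNAC2 after DMSO only. ST8SIA1 did not reach it in every library of either group. Genes that pass through 1 group tend to be higher there, and counts over the 58 are therefore a description.

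FPKM divide a gene's counts by its exon length and by its library's total, so they can be compared between genes. Fold changes come from counts scaled with trimmed-mean (TMM) factors, and scaling by library totals in the same test moved the median gene by -0.10 log2. Fold changes below are relative to the trimmed-mean scale. In bulk RNA, fewer cells with a transcript and less of it per cell cannot be told apart. Summed over all 77 genes, the level was 430, 426 and 426 FPKM after Japoflavone B and 498, 494 and 502 FPKM after DMSO. The 77 genes took 0.248% to 0.251% of a library's counts after Japoflavone B and 0.297% to 0.302% after DMSO.

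**Figure D1:**
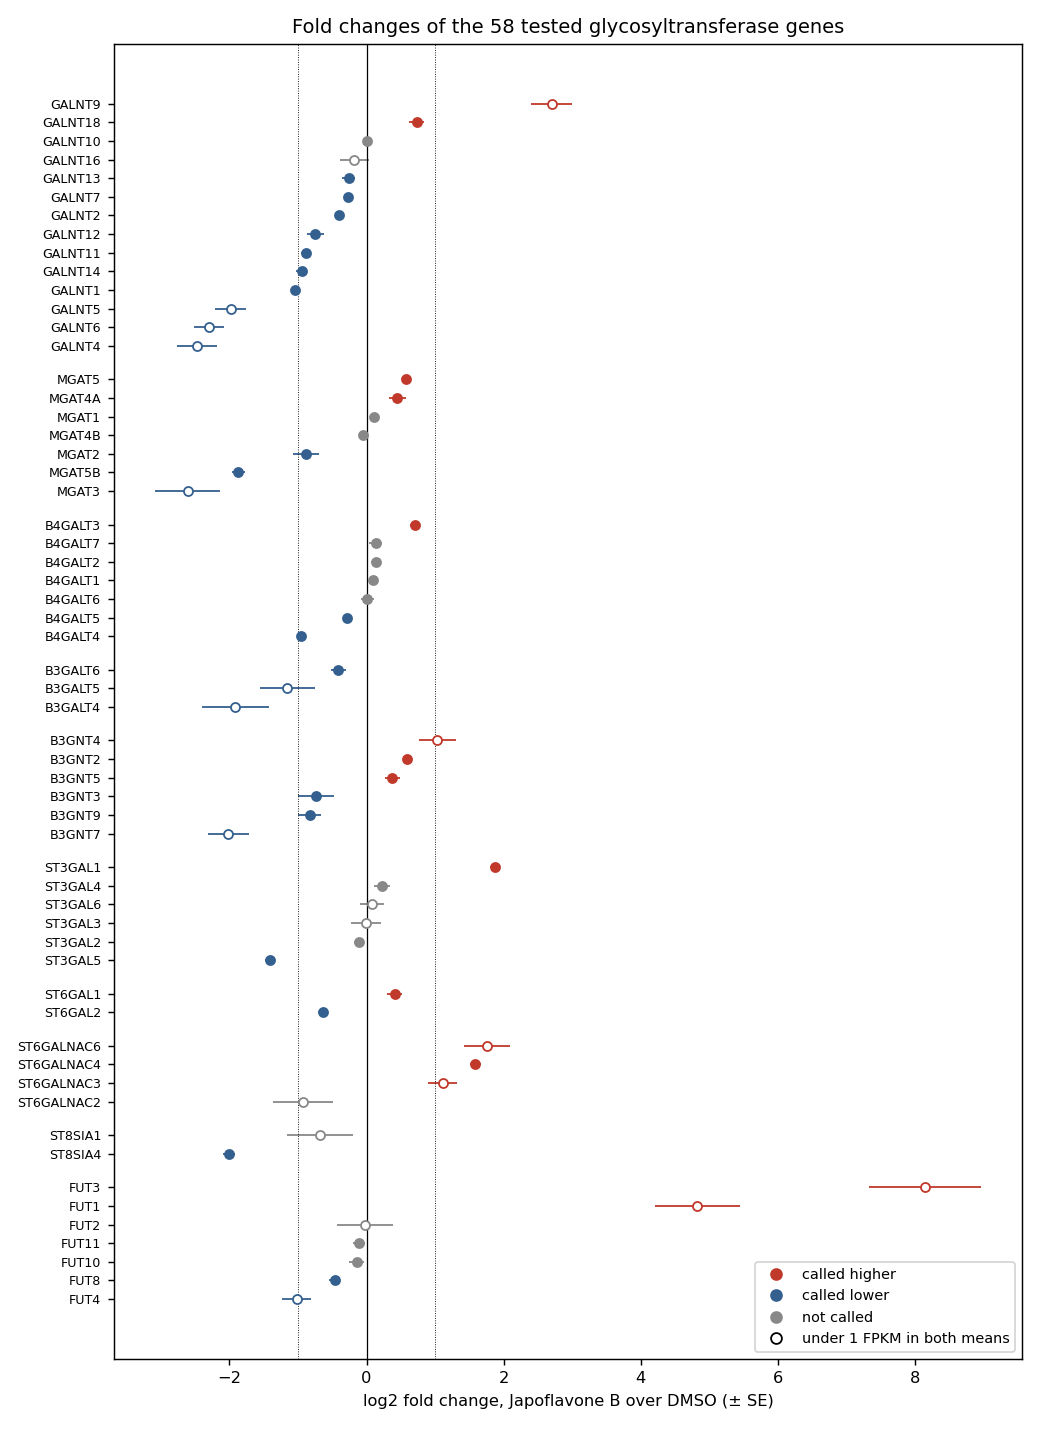
Log2 fold changes of the 58 tested genes, Japoflavone B over DMSO (x axis), with 1 row per gene, grouped by family and sorted by value; points are edgeR estimates and bars are ± SE. Red points were called higher (15), blue lower (26) and grey not called (17), open points lay under 1 FPKM in both group means, dotted lines mark 2-fold, and the points of FUT3 and FUT1 depend on the prior count because DMSO libraries held 0 and 3 counts.

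The sialyltransferase ST6GALNAC4 and the fucosyltransferase FUT3 were among the called increases, and the polysialyltransferase ST8SIA4 and the branching enzyme MGAT5B among the called decreases. The 250 bases before their RefSeq starts are shown to compare the promoters of genes that moved in opposite directions (RefSeq windows, GRCh38.p14, 5′ to 3′ on the gene's strand). The 4 genes were picked after their values were seen, from those with 1 window, and capitals mark matches to the motifs listed below on either strand.
ST6GALNAC4 (chr9:127917042-127917291, minus strand): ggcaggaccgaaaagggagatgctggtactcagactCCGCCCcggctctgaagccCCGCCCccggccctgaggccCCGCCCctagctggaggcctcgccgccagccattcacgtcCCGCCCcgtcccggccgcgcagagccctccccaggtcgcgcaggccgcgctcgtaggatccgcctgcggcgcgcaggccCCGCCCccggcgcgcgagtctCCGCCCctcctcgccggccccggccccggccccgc
FUT3 (chr19:5851450-5851699, minus strand): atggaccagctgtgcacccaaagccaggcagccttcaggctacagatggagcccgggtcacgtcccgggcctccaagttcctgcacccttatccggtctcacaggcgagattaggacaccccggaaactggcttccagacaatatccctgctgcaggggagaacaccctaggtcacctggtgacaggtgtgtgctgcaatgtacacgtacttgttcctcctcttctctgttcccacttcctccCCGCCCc
ST8SIA4 (chr5:100903283-100903532, minus strand): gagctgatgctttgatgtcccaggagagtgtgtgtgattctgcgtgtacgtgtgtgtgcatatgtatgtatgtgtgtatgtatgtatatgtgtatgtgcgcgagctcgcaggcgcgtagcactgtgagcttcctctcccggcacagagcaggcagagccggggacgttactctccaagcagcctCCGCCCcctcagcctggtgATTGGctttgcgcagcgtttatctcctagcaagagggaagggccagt
MGAT5B (chr17:76872397-76872646, plus strand): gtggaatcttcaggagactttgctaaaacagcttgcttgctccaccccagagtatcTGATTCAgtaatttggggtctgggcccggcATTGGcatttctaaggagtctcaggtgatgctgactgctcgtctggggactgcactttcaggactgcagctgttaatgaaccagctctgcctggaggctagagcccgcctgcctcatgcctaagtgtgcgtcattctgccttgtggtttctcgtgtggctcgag

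The ST6GALNAC4 window was 79.2% G or C and held 34 CpG pairs and 6 GC boxes (GGGCGG). FUT3 had 1 GC box in a window of 59.2% G or C with 8 CpG pairs. The deposited annotation starts FUT3, on the minus strand, at 5851471, inside this window, so the GC box lies within the gene as annotated there. The ST8SIA4 window, 55.6% G or C with 13 CpG pairs, held 1 GC box and 1 CCAAT box. MGAT5B had 53.6% G or C and 6 CpG pairs, with 1 CCAAT box and 1 AP-1 site (TGANTCA). The deposited annotation starts MGAT5B at 76868404, upstream of this window, so another start of the gene lies outside it. Windows were found for 55 of the 77 genes, 92 windows in all. GC boxes occurred in 59.8% of these windows and in 42.6% of all 35116 RefSeq windows. The other motifs searched were CCAAT (28.3% of members' windows, 32.0% of all), AP-1 (4.35% and 6.57%) and the E-box CACGTG (6.52% and 6.34%). Also searched were the cAMP response element TGACGTCA (2.17% and 1.65%), the NRF1 core (1.09% and 1.03%) and TATAAA (1.09% and 10.7%). The p53 consensus was searched as the half-site RRRCWWGYYY (3.26% and 5.57%). This half-site was in no window of the 31 called genes with a window, 11 higher and 20 lower. GC boxes were found for 11 of these 11 and 17 of these 20 genes, beside 46 of all 55 members with a window (83.6%). CCAAT boxes were found for 3 of the 11 and 11 of the 20, beside 23 of the 55 (41.8%). Median G and C content was 65.2% in the 18 windows of genes called higher and 68.0% in the 34 windows of genes called lower, against 58.0% over all windows.

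O-glycan initiation genes were mostly lower. Of 18 GALNT genes, 14 were tested, 10 were called lower and 2 higher, with a family median of -0.58 log2. The shares were 71.4% lower and 14.3% higher, beside 35.4% and 34.7% of all genes tested. These background shares also apply to the family counts below. The family's summed level was 106, 103 and 107 FPKM after Japoflavone B, against 159, 154 and 157 FPKM after DMSO. GALNT1 (ENSG00000141429, chromosome 18, 35581117 to 35711834, GRCh38), a broadly expressed initiator, had 20.77, 19.28 and 19.78 FPKM after Japoflavone B, against 44.27, 42.33 and 45.63 after DMSO. It was 2.06-fold lower (log2 fold change -1.04 ± 0.05, SE; adjusted p = 7.7e-16) and the DMSO libraries lay above 42 FPKM while no Japoflavone B library reached 21 FPKM. GALNT2, the other broadly expressed initiator, had 21.19, 20.90 and 21.53 FPKM after Japoflavone B, against 29.36, 30.69 and 30.48 after DMSO. Its decrease was smaller, 1.33-fold lower (log2 fold change -0.41 ± 0.05, SE; adjusted p = 4.35e-08), and the groups were apart.

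GALNT10 and GALNT7 encode enzymes that prefer peptides already carrying GalNAc. GALNT10 had 28.53, 28.45 and 29.75 FPKM after Japoflavone B, against 32.14, 30.25 and 30.37 after DMSO. The FPKM of the groups were narrowly apart, but on the trimmed-mean scale the gene was not called (log2 fold change 0.01 ± 0.05, SE; adjusted p = 0.931). It overlaps MFAP3 on the same strand, which rose by 0.71 log2. GALNT7 had 13.27, 12.36 and 12.96 FPKM after Japoflavone B, against 17.90, 16.15 and 15.82 after DMSO, and it was 1.20-fold lower (log2 fold change -0.27 ± 0.06, SE; adjusted p = 0.00024). GALNT1, the most abundant GALNT transcript after DMSO, was below GALNT10 and GALNT2 in every Japoflavone B library. GALNT1 took 19.0% ± 0.546 after Japoflavone B and 28.1% ± 0.797 after DMSO of the family's summed FPKM (SD, n = 3), and GALNT10 took 27.5% ± 0.528 after Japoflavone B and 19.7% ± 0.494 after DMSO. Such a share does not depend on scaling between libraries. The GALNT1 to GALNT10 ratio of FPKM was 0.728, 0.678 and 0.665 in the Japoflavone B libraries, against 1.38, 1.40 and 1.50 in the DMSO libraries.

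Of the GALNT genes at an intermediate level, GALNT14, GALNT11, GALNT12 and GALNT13 fell and GALNT18 rose. GALNT14, whose enzyme is known to glycosylate death receptors of the TRAIL pathway, had 5.62, 6.34 and 6.14 FPKM after Japoflavone B, against 11.43, 12.49 and 13.57 after DMSO (1.93-fold lower; log2 -0.95 ± 0.08, adjusted p = 2.56e-11). GALNT11, known for glycosylating Notch and LDL receptor family proteins, had 4.08, 3.48 and 4.01 FPKM after Japoflavone B, against 7.42, 8.08 and 7.36 after DMSO (1.84-fold lower; log2 -0.88 ± 0.07, adjusted p = 1.76e-11). Both genes stood near 2-fold below DMSO with no overlap. GALNT12, known from the colon, had 2.34, 2.47 and 2.26 FPKM after Japoflavone B, against 4.82, 3.95 and 3.92 after DMSO (1.68-fold lower; log2 -0.75 ± 0.13, adjusted p = 9.2e-06). GALNT13, known from neurons, had 3.71, 3.23 and 3.77 FPKM after Japoflavone B, against 5.21, 4.40 and 4.15 after DMSO (1.20-fold lower; log2 -0.26 ± 0.09, adjusted p = 0.0134). The call of GALNT13 was lost when Japoflavone B replicate 2 or DMSO replicate 1 was left out (adjusted p = 0.0987 and 0.120). GALNT18, a member of a subgroup with little measured transferase activity, moved the other way with 5.25, 5.01 and 4.79 FPKM after Japoflavone B, against 3.23, 3.37 and 3.12 after DMSO. It was 1.66-fold higher (log2 0.73 ± 0.10, adjusted p = 5.74e-07), and its gene overlaps CSNK2A3 on the same strand.

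The low members of the family, under 1 FPKM in both group means, included the family's largest fold changes. GALNT4 had 11, 10 and 14 counts after Japoflavone B, against 95, 80 and 51 after DMSO (5.52-fold lower; log2 -2.47 ± 0.29, adjusted p = 2.11e-08). Its counts are uncertain, since 93.2% of the 50-base words in its GENCODE 29 transcripts also occur in those of the read-through gene POC1B-GALNT4, which held 15 counts after Japoflavone B and 11 after DMSO in total. GALNT6, known for oncofetal fibronectin, had 24, 21 and 23 counts after Japoflavone B, against 119, 139 and 123 after DMSO (4.91-fold lower; log2 -2.30 ± 0.22, adjusted p = 5.24e-10). On the opposite strand it overlaps SLC4A8, which rose by 1.20 log2, and the strand setting of the counting is not stated. GALNT5 had 32, 19 and 40 counts after Japoflavone B, against 141, 131 and 135 after DMSO (3.95-fold lower; log2 -1.98 ± 0.22, adjusted p = 7.68e-09). GALNT9, known from the brain, was the exception with 86, 47 and 99 counts after Japoflavone B, against 13, 13 and 14 after DMSO (6.51-fold higher; log2 2.70 ± 0.30, adjusted p = 5.76e-09). All 3 libraries of each group lay on 1 side for these 4 genes. GALNT16, at 0.307 ± 0.095 FPKM after Japoflavone B and 0.377 ± 0.0503 after DMSO (SD, n = 3), was not called (log2 -0.18 ± 0.22, adjusted p = 0.468). GALNT3, GALNT8, GALNT15 and GALNT17 were not tested; GALNT8 had no count in any library and GALNT15 had 16 counts after Japoflavone B and 27 after DMSO in total. GALNT3 had 13 counts after Japoflavone B and 2 after DMSO, a ratio of 6.97 after scaling by library totals (exact 95% binomial interval 1.58 to 63.6), and 11 of the 13 came from 1 library. This interval covers counting error and not the spread between libraries, and the FPKM of the groups overlapped.

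N-glycan branching genes moved in both directions. Of 8 MGAT genes, 7 were tested, of which 2 were called higher and 3 lower. The MGAT family median was -0.05 log2, and it reached 0.00 when DMSO replicate 3 was left out. MGAT1, which adds the GlcNAc that opens the pathway to complex N-glycans, had 7.78, 7.90 and 7.55 FPKM after Japoflavone B, against 7.04, 7.87 and 8.14 after DMSO. These groups overlapped and the gene was not called (log2 0.11 ± 0.06, adjusted p = 0.101), although it was called higher without DMSO replicate 3 (adjusted p = 0.0278). MGAT2, which adds GlcNAc to the other arm of the core, had 1.05, 1.78 and 1.37 FPKM after Japoflavone B, against 2.70, 3.07 and 2.41 after DMSO. MGAT2 was 1.84-fold lower (log2 -0.88 ± 0.19, adjusted p = 0.000132) with no overlap.

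MGAT4B and MGAT4A encode enzymes that make the same branch. MGAT4B, the most abundant of the family, had 27.68, 28.41 and 26.38 FPKM after Japoflavone B, against 27.82, 31.43 and 32.69 after DMSO, and was not called (log2 -0.05 ± 0.06, adjusted p = 0.427). It was called lower with library totals (adjusted p = 0.0202) and without DMSO replicate 1 (adjusted p = 0.0366). MGAT4B overlaps SQSTM1 on the opposite strand, a gene with 20036 counts after Japoflavone B and 31453 after DMSO. MGAT4A had 1.52, 2.05 and 1.70 FPKM after Japoflavone B, against 1.58, 1.19 and 1.36 after DMSO. It was called higher (1.36-fold higher; log2 0.45 ± 0.12, adjusted p = 0.00229) although DMSO replicate 1 exceeded Japoflavone B replicate 1 in FPKM, and the call was lost with limma on log2(FPKM + 1) and log2(FPKM + 0.1) (adjusted p = 0.0832 and 0.0922).

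MGAT5 and its paralog MGAT5B, with no shared 50-base word in their GENCODE 29 transcripts, moved apart. MGAT5 (ENSG00000152127, chromosome 2, 134119983 to 134454621, GRCh38), which makes the branch that carries polylactosamine and is known from metastatic carcinomas, had 9.75, 9.07 and 9.88 FPKM after Japoflavone B, against 7.05, 6.92 and 6.68 after DMSO. It was 1.49-fold higher (log2 fold change 0.58 ± 0.06, SE; adjusted p = 1.84e-09), each Japoflavone B library above each DMSO library. MGAT5B (ENSG00000167889, chromosome 17, 76868404 to 76950393, GRCh38), which branches O-mannose glycans and is known from the brain, had 1.73, 1.71 and 2.15 FPKM after Japoflavone B, against 6.83, 7.14 and 8.04 after DMSO. It was 3.66-fold lower (log2 fold change -1.87 ± 0.10, SE; adjusted p = 6.01e-16), and no library of 1 group came near the other. The ratio of MGAT5 to MGAT5B FPKM was 5.64, 5.30 and 4.60 in the Japoflavone B libraries, against 1.03, 0.969 and 0.831 in the DMSO libraries. MGAT5B made up 3.74% ± 0.559 after Japoflavone B and 12.9% ± 0.584 after DMSO of the family's FPKM, and MGAT5 19.2% ± 1.25 after Japoflavone B and 12.1% ± 1.03 after DMSO (SD, n = 3). This pair and the other gene pairs whose ratios are given were picked after their values were seen. MGAT3, which adds the bisecting GlcNAc, was rare with 3, 7 and 2 counts after Japoflavone B, against 27, 37 and 23 after DMSO (6.10-fold lower; log2 -2.61 ± 0.47). It passed the filter only through DMSO, where it is high, so its call is a description, and without Japoflavone B replicate 2 the log2 fold change was -3.36. MGAT4C was not tested, with 1 count after Japoflavone B and 2 after DMSO in total.

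**Figure D2:**
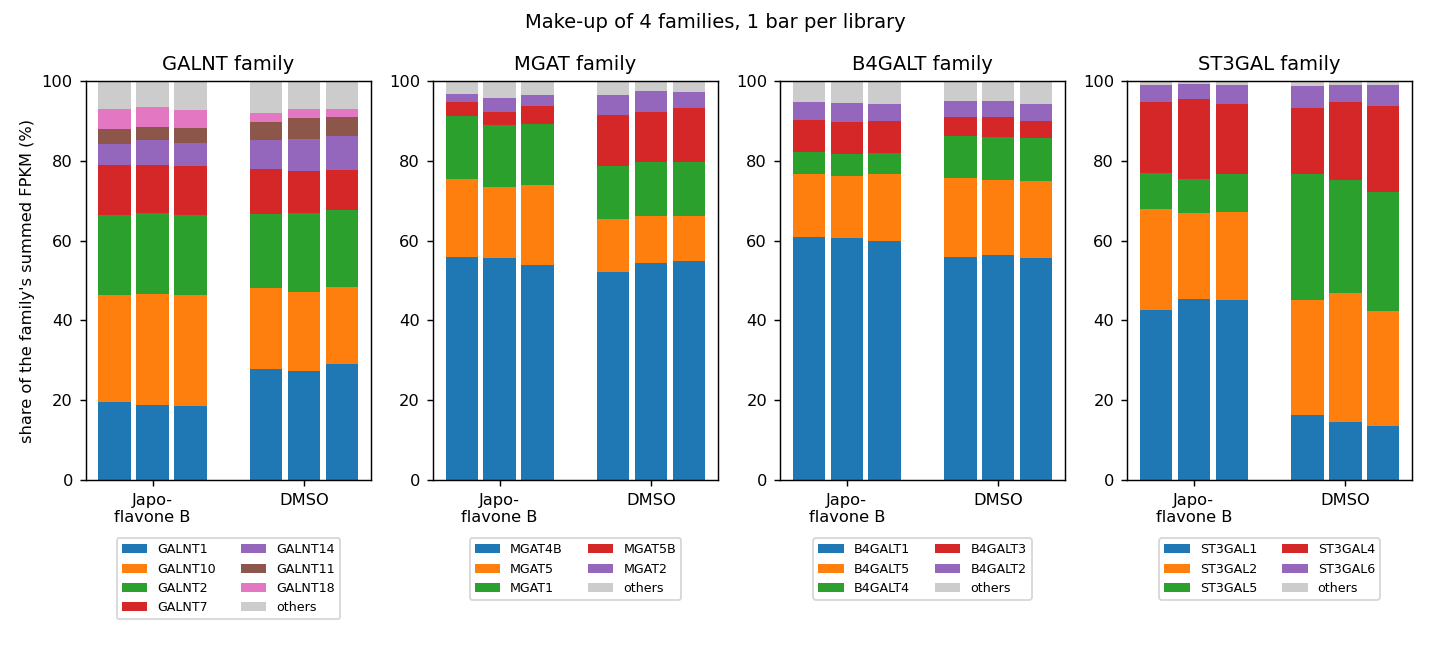
Share of the summed FPKM of the GALNT, MGAT, B4GALT and ST3GAL families held by each gene (y axis, percent), with 1 stacked bar per library, Japoflavone B on the left of each panel and DMSO on the right; genes under 4% in both group means are merged as others. The ST3GAL1 segment holds 44.4% after Japoflavone B and 14.8% after DMSO, and the MGAT5B segment 3.74% and 12.9%.

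Genes for the enzymes that add galactose were mostly not called or changed less than 2-fold. All 7 B4GALT genes were tested, 1 was called higher, 2 lower and 4 were not called. The family median was 0.10 log2 and turned to -0.01 when libraries were scaled by their totals. B4GALT1, the main enzyme that adds galactose to GlcNAc on N-glycans, had 110.33, 108.41 and 106.86 FPKM after Japoflavone B, against 110.57, 108.69 and 107.82 after DMSO. It was the most abundant of the 77 genes in every library, the groups overlapped and it was not called (log2 0.10 ± 0.05, adjusted p = 0.0718). DESeq2 as the test called it higher (adjusted p = 0.0372), as did the fit without DMSO replicate 1 (adjusted p = 0.0273).

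B4GALT3 and B4GALT4 moved in opposite directions. B4GALT3 had 14.54, 14.18 and 14.03 FPKM after Japoflavone B, against 9.75, 9.74 and 8.52 after DMSO, and was 1.63-fold higher (log2 0.71 ± 0.07, adjusted p = 7.45e-10). B4GALT4, whose enzyme acts on sulfated GlcNAc in keratan sulfate, had 10.17, 10.05 and 9.55 FPKM after Japoflavone B, against 20.45, 20.68 and 20.74 after DMSO, and was 1.94-fold lower (log2 -0.95 ± 0.06, adjusted p = 1.02e-14). The ratio of B4GALT4 to B4GALT3 FPKM was 0.699, 0.709 and 0.681 in the Japoflavone B libraries, against 2.10, 2.12 and 2.43 in the DMSO libraries, so B4GALT4 was the higher of the pair after DMSO and the lower after Japoflavone B. B4GALT3 overlaps PPOX on the opposite strand, which had 697 counts after Japoflavone B and 965 after DMSO.

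B4GALT5 and B4GALT6 encode lactosylceramide synthases, which lie at the start of ganglioside synthesis. B4GALT5 had 28.75, 28.04 and 29.71 FPKM after Japoflavone B, against 39.08, 36.39 and 37.64 after DMSO, 1.22-fold lower (log2 -0.28 ± 0.05, adjusted p = 2.87e-05). B4GALT6 had 5.04, 5.22 and 5.43 FPKM after Japoflavone B, against 5.96, 4.73 and 6.05 after DMSO, and was not called (log2 0.01 ± 0.09, adjusted p = 0.906). B4GALT5 was thus the more abundant of the pair in all 6 libraries. B4GALT2 had 8.08, 8.36 and 7.78 FPKM after Japoflavone B, against 7.60, 7.77 and 8.40 after DMSO, and was not called (log2 0.13 ± 0.07, adjusted p = 0.102), except without DMSO replicate 3, when it was called higher (adjusted p = 0.0411). B4GALT7, which adds the galactose of the proteoglycan linker, had 4.45, 4.77 and 4.80 FPKM after Japoflavone B, against 4.09, 4.70 and 4.94 after DMSO, with overlapping groups (log2 0.13 ± 0.09, adjusted p = 0.202). B3GALT6, which adds the next galactose of that linker, had 6.37, 5.73 and 5.36 FPKM after Japoflavone B, against 6.83, 8.90 and 9.32 after DMSO. It was 1.33-fold lower (log2 -0.41 ± 0.11, adjusted p = 0.0017), the groups apart by a small margin.

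The other B3GALT genes were rare. B3GALT4, a synthase of the gangliosides GM1 and GD1b, had 14, 1 and 4 counts after Japoflavone B, against 22, 30 and 29 after DMSO (3.77-fold lower; log2 -1.91 ± 0.49). Without Japoflavone B replicate 1, which held 14 of its 19 counts in that group, the log2 fold change was -3.12. Its gene overlaps WDR46 on the opposite strand, which held 2455 counts after Japoflavone B and 2258 after DMSO. B3GALT5, which makes type 1 chains, had 6, 8 and 15 counts after Japoflavone B, against 24, 31 and 20 after DMSO (2.23-fold lower; log2 -1.15 ± 0.40, adjusted p = 0.0127). Both genes passed the filter only through DMSO, where they are high, so their calls are a description. The call of B3GALT5 was lost under limma on log2(FPKM + 1) and when Japoflavone B replicate 1 or DMSO replicate 2 was left out (adjusted p = 0.122, 0.105 and 0.0516). B3GALT1 with 30 counts after Japoflavone B and 9 after DMSO, and B3GALT2 with 2 and 0, were not tested.

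GlcNAc chain extension genes were split. Of 8 B3GNT genes, 6 were tested, 3 were called higher and 3 lower. B3GNT2, the main polylactosamine synthase, had 20.80, 21.27 and 19.67 FPKM after Japoflavone B, against 15.13, 14.17 and 14.56 after DMSO. It was 1.51-fold higher (log2 0.59 ± 0.07, adjusted p = 9.13e-09) with each Japoflavone B library above each DMSO library, and took 79.2% ± 2.17 after Japoflavone B and 65.7% ± 1.93 after DMSO of the family's FPKM (SD, n = 3). B3GNT5, which opens the lacto series of glycolipids, had 2.04, 2.00 and 1.94 FPKM after Japoflavone B, against 1.52, 1.82 and 1.62 after DMSO (1.30-fold higher; log2 0.37 ± 0.11, adjusted p = 0.00294). The call of B3GNT5 was lost with limma on log2(FPKM + 1) and log2(FPKM + 0.1) (adjusted p = 0.0612 and 0.0740).

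B3GNT9, B3GNT3 and B3GNT7 were the members called lower. B3GNT9 had 1.76, 1.34 and 2.35 FPKM after Japoflavone B, against 3.39, 4.0 and 3.02 after DMSO (1.78-fold lower; log2 -0.83 ± 0.17, adjusted p = 9.67e-05). It overlaps PHAF1 on the opposite strand, which held 1841 counts after Japoflavone B and 1565 after DMSO. B3GNT3, which extends core 1 O-glycans, had 0.47, 0.64 and 0.84 FPKM after Japoflavone B, against 1.01, 1.10 and 1.42 after DMSO (1.66-fold lower; log2 -0.73 ± 0.26, adjusted p = 0.015). It was no longer called without Japoflavone B replicate 1 or DMSO replicate 3 (adjusted p = 0.108 and 0.0710). B3GNT7, a keratan sulfate enzyme, had 16, 11 and 12 counts after Japoflavone B, against 75, 58 and 49 after DMSO (4.05-fold lower; log2 -2.02 ± 0.30, adjusted p = 1.09e-06). B3GNT4 rose with 75, 52 and 49 counts after Japoflavone B, against 26, 33 and 38 after DMSO (2.04-fold higher; log2 1.03 ± 0.27, adjusted p = 0.00143). B3GNT6, the core 3 synthase, and B3GNT8 had 0 and 2 counts after Japoflavone B and 8 and 3 after DMSO and were not tested.

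Sialyltransferase genes moved in both directions. Of 20, 14 were tested, 5 were called higher, 3 lower and 6 were not called, and 4 of the 5 and 2 of the 3 changed at least 2-fold. The shares called were 35.7% higher and 21.4% lower, beside 34.7% and 35.4% of all genes tested. ST3GAL1 (ENSG00000008513, chromosome 8, 133454848 to 133571940, GRCh38), which caps core 1 O-glycans with sialic acid, had 7.42, 8.83 and 8.30 FPKM after Japoflavone B, against 2.54, 2.36 and 2.27 after DMSO. It was 3.66-fold higher (log2 fold change 1.87 ± 0.08, SE; adjusted p = 5.62e-18), and the lowest Japoflavone B library stood far above the highest DMSO library. ST3GAL5 (ENSG00000115525, chromosome 2, 85837120 to 85905199, GRCh38), the GM3 synthase that opens the ganglioside series, had 1.61, 1.68 and 1.78 FPKM after Japoflavone B, against 4.94, 4.60 and 4.98 after DMSO. It was 2.66-fold lower (log2 fold change -1.41 ± 0.07, SE; adjusted p = 2.46e-16), and the groups were as clearly apart in the other direction.

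ST3GAL1 made up 44.4% ± 1.52 after Japoflavone B and 14.8% ± 1.31 after DMSO of the family's summed FPKM, and ST3GAL5 9.19% ± 0.528 after Japoflavone B and 29.9% ± 1.59 after DMSO (SD, n = 3). The ratio of ST3GAL1 to ST3GAL5 was 4.61, 5.26 and 4.66 in the Japoflavone B libraries, against 0.514, 0.513 and 0.456 in the DMSO libraries. The order of the 2 genes was thus opposite in the 2 groups. The family median was 0.03 log2 and turned to -0.07 with library totals, and its other 4 members were not called. ST3GAL2, which acts on core 1 and on gangliosides, had 4.38, 4.19 and 4.03 FPKM after Japoflavone B, against 4.53, 5.23 and 4.78 after DMSO (log2 -0.10 ± 0.07, adjusted p = 0.199), apart by a small margin. Scaling by library totals called it lower (adjusted p = 0.0138). ST3GAL4, which sialylates lactosamine ends, had 3.07, 3.87 and 3.22 FPKM after Japoflavone B, against 2.59, 3.16 and 3.57 after DMSO (log2 0.23 ± 0.11, adjusted p = 0.0761). It was called higher with the replicate block (adjusted p = 0.0480) and without Japoflavone B replicate 1 or DMSO replicate 3 (adjusted p = 0.0375 and 0.00935). ST3GAL3, at 0.163 ± 0.0289 FPKM after Japoflavone B and 0.18 ± 0.03 after DMSO, and ST3GAL6, at 0.79 ± 0.07 FPKM after Japoflavone B and 0.81 ± 0.106 after DMSO (SD, n = 3), were low and not called. ST3GAL6 overlaps DCBLD2 on the opposite strand, with 79890 counts after Japoflavone B and 71638 after DMSO.

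**Figure D3:**
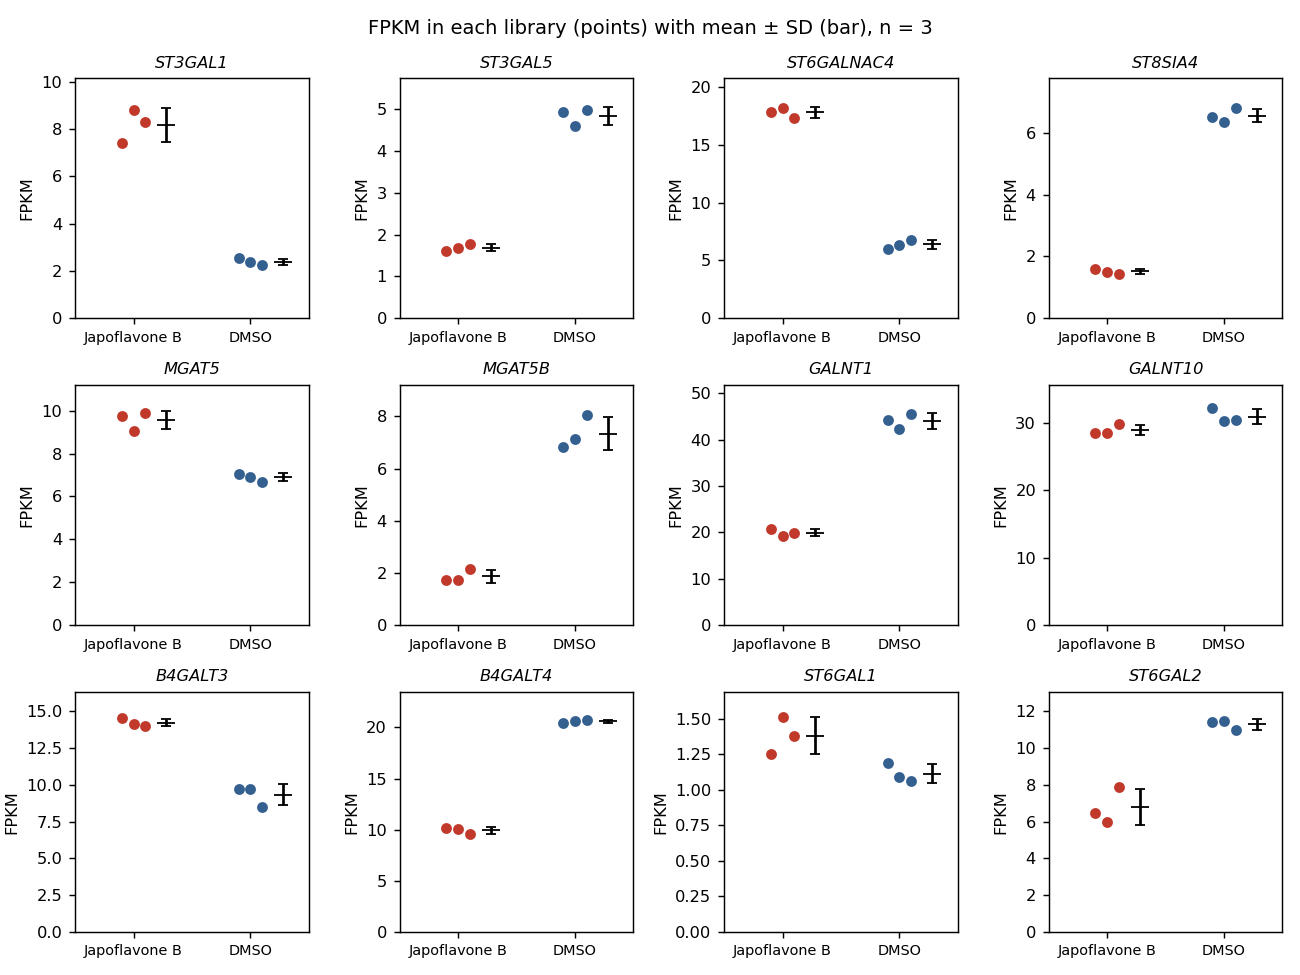
FPKM (y axis, from 0, with a scale of its own per panel) of 12 genes in the 3 Japoflavone B libraries (red, left) and the 3 DMSO libraries (blue, right), with the mean ± SD as a bar. Groups do not overlap in any panel; ST3GAL1, ST6GALNAC4, MGAT5, B4GALT3 and ST6GAL1 are higher after Japoflavone B, and the other 7 are lower in FPKM, of which GALNT10 was not called.

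The 2 genes for alpha-2,6 capping of lactosamine also moved apart. ST6GAL1, the broadly expressed enzyme of N-glycan sialylation, had 1.25, 1.51 and 1.38 FPKM after Japoflavone B, against 1.19, 1.09 and 1.06 after DMSO, and was 1.33-fold higher (log2 0.41 ± 0.11, adjusted p = 0.0021). Its call was lost with limma on log2(FPKM + 1) and log2(FPKM + 0.1) (adjusted p = 0.0617 and 0.0874). ST6GAL2, known mainly from the brain, had 6.47, 5.99 and 7.89 FPKM after Japoflavone B, against 11.41, 11.49 and 10.96 after DMSO, and was 1.55-fold lower (log2 -0.63 ± 0.07, adjusted p = 1.86e-08). ST6GAL2 stayed the more abundant of the pair, with a ratio to ST6GAL1 of 5.18, 3.97 and 5.72 in the Japoflavone B libraries, against 9.59, 10.5 and 10.3 in the DMSO libraries.

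ST6GALNAC genes, which add sialic acid to the GalNAc of O-glycans or to gangliosides, were higher or uncalled. Of 6, 4 were tested, 3 rose at least 2-fold and 1 was not called. The family's summed level was 19.2, 19.7 and 18.7 FPKM after Japoflavone B and 6.87, 7.47 and 7.67 FPKM after DMSO. ST6GALNAC4 (ENSG00000136840, chromosome 9, 127907886 to 127917041, GRCh38), which makes disialylated core 1 from the product of ST3GAL1, carried most of it with 17.86, 18.22 and 17.34 FPKM after Japoflavone B, against 6.02, 6.34 and 6.80 after DMSO. ST6GALNAC4 was 3.00-fold higher (log2 fold change 1.59 ± 0.08, SE; adjusted p = 4.84e-16), and the groups were widely apart. The pseudogene ST6GALNAC4P1 shares no 50-base word with it. ST6GALNAC6, which acts on gangliosides, had 36, 50 and 47 counts after Japoflavone B, against 19, 18 and 9 after DMSO (3.37-fold higher; log2 1.75 ± 0.33, adjusted p = 3.4e-05). ST6GALNAC3 had 126, 87 and 96 counts after Japoflavone B, against 40, 80 and 44 after DMSO (2.16-fold higher; log2 1.11 ± 0.21, adjusted p = 3.57e-05). Both were under 1 FPKM in each group mean and did not overlap in FPKM. ST6GALNAC2 had 7, 5 and 11 counts after Japoflavone B, against 21, 19 and 11 after DMSO, and was not called (log2 -0.93 ± 0.44, adjusted p = 0.061). Of the alternatives, 4 called it lower (adjusted p = 0.0149 to 0.0466). It passed the filter only through DMSO, where it is high, so these calls are a description. ST6GALNAC2 overlaps SNHG16, on the opposite strand, which rose by 1.68 log2. An unnamed gene that overlaps it on the same strand rose by 2.50 log2. ST6GALNAC1, the sialyl-Tn synthase, had 2 counts after Japoflavone B and 22 after DMSO in total and was not tested, and ST6GALNAC5 had 5 and 2.

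Among the ST8SIA genes, which link sialic acid to sialic acid, 1 was expressed above 1 FPKM. ST8SIA4 (ENSG00000113532, chromosome 5, 100806933 to 100903282, GRCh38), which makes polysialic acid on the neural cell adhesion molecule, had 1.60, 1.51 and 1.44 FPKM after Japoflavone B, against 6.52, 6.36 and 6.79 after DMSO. It was 4.02-fold lower (log2 fold change -2.01 ± 0.08, SE; adjusted p = 6.08e-18), with the 3 libraries of each group close together. ST6GALNAC4 and ST8SIA4 had nearly equal FPKM after DMSO, and the ratio of the first to the other was 11.2, 12.1 and 12.0 in the Japoflavone B libraries, against 0.923, 0.997 and 1.00 in the DMSO libraries. ST8SIA1, the GD3 synthase, had 22 counts after Japoflavone B and 40 after DMSO in total and was not called (log2 -0.68 ± 0.49, adjusted p = 0.215). It overlaps CMAS, which makes the sialic acid donor and held 3449 counts after Japoflavone B and 4108 after DMSO, on the opposite strand. ST8SIA2, ST8SIA3, ST8SIA5 and ST8SIA6 were not tested, and ST8SIA6 led them with 17 counts after Japoflavone B and 8 after DMSO.

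Among fucosyltransferase genes, the rare FUT3 and FUT1 had more counts after Japoflavone B, and FUT8 and FUT4 fell. Of 11 FUT genes, 7 were tested, 2 were called higher, 2 lower and 3 were not called. FUT3 (ENSG00000171124, chromosome 19, 5842888 to 5851471, GRCh38), the Lewis enzyme, had 35, 30 and 33 counts after Japoflavone B, against 0, 0 and 0 after DMSO. Counts in all 3 Japoflavone B libraries stood against none in DMSO libraries, which is at least 35.0-fold higher per library total when DMSO is set at a floor of 3 counts over the group. The exact 95% binomial interval of the ratio, a stricter rule, starts at 27.9. FUT1 (ENSG00000174951, chromosome 19, 48748011 to 48755390, GRCh38), which makes the H antigen, had 40, 24 and 20 counts after Japoflavone B, against 2, 0 and 1 after DMSO. Scaled by library totals, the ratio was 30.0 (exact 95% binomial interval 9.92 to 148, counting error only). FUT3 and FUT1 passed the filter on low counts only through the Japoflavone B libraries, where they are high, so their calls are a description. Both genes stayed under 1 FPKM. FUT5, the neighbour of FUT3, had 12, 4 and 6 counts after Japoflavone B, against 0, 0 and 0 after DMSO, and was not tested, at least 7.86-fold higher against the same floor, with an exact interval that starts at 5.87. Reads of the pair are uncertain: 20.3% of the 50-base words of FUT5 transcripts occur in FUT3, and 12.0% of those of FUT3 in FUT5. An unnamed gene on the opposite strand of FUT3 (ENSG00000267709) had 43 counts after Japoflavone B and 1 after DMSO. FUT6, in the same gene cluster and related to both, had 2 counts after Japoflavone B and 0 after DMSO. FUT2, the secretor gene, had 18, 8 and 25 counts after Japoflavone B, against 31, 21 and 8 after DMSO with overlapping FPKM and was not called (log2 -0.02 ± 0.41, adjusted p = 0.967).

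Of the more abundant fucosyltransferase genes, FUT8 was lower and FUT10 and FUT11 were not called. FUT8, the only enzyme of core fucosylation of N-glycans, had 3.31, 2.96 and 3.19 FPKM after Japoflavone B, against 5.16, 4.42 and 4.47 after DMSO, and was 1.38-fold lower (log2 -0.47 ± 0.09, adjusted p = 2.91e-05). FUT11 had 6.04, 5.60 and 5.20 FPKM after Japoflavone B, against 6.91, 5.94 and 6.64 after DMSO, and was not called (log2 -0.11 ± 0.09, adjusted p = 0.273). FUT10 had 2.92, 2.66 and 2.71 FPKM after Japoflavone B, against 3.69, 3.20 and 2.91 after DMSO, and was not called either (log2 -0.14 ± 0.11, adjusted p = 0.24). The groups of both overlapped. With library totals both were called lower (adjusted p = 0.0329 and 0.0473). FUT4, which makes Lewis x, had 47, 32 and 62 counts after Japoflavone B, against 127, 102 and 96 after DMSO (2.02-fold lower; log2 -1.02 ± 0.21, adjusted p = 0.000113). FUT4 overlaps PIWIL4 on the same strand, with 54 counts after Japoflavone B and 19 after DMSO. FUT7 had 1 count after Japoflavone B and 0 after DMSO, and FUT9 had no count in any library.

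**Figure D4:**
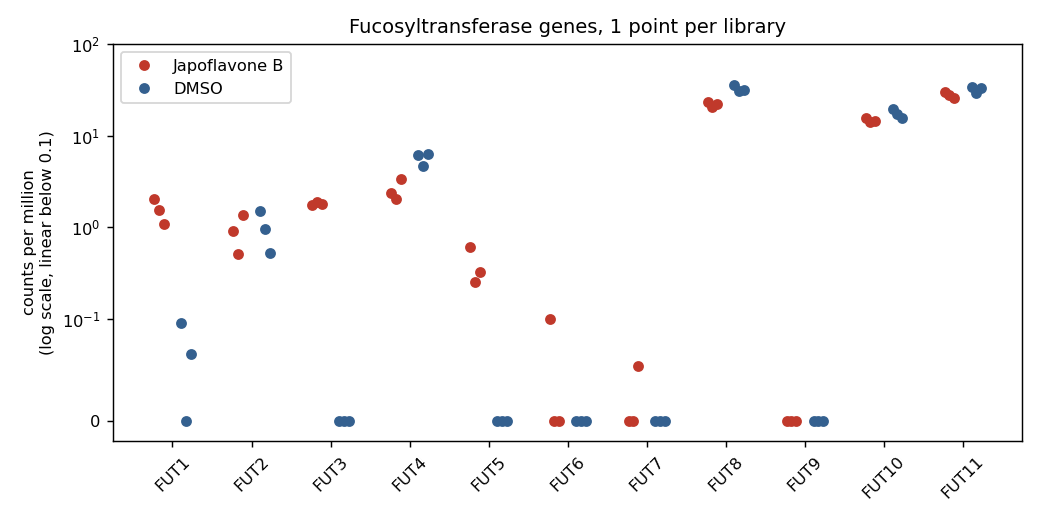
CPM (counts scaled to a common library total) of each FUT gene (y axis, log scale that is linear below 0.1, with 0 shown), 1 point per library, Japoflavone B in red on the left and DMSO in blue on the right of each gene. FUT3 and FUT5 have counts in all 3 Japoflavone B libraries and 0 in all 3 DMSO libraries, whereas FUT8, FUT10 and FUT11 lie above 10 in every library.

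Genes that supply donor sugars were more often higher than lower. Of 23 nucleotide sugar synthesis genes, all tested, 11 were called higher and 4 lower, with a median of 0.16 log2 beside 0.00 over all genes tested. Over all genes tested, 34.7% were called higher and 35.4% lower, the background for this list and for those below. GFPT2 and GFPT1, the entry enzymes of the hexosamine pathway to UDP-GlcNAc, were 2.58-fold higher (25.1 ± 0.181 FPKM after Japoflavone B and 10.5 ± 0.315 after DMSO; SD, n = 3; adjusted p = 7.35e-18) and 1.92-fold higher (23.2 ± 0.723 FPKM after Japoflavone B and 13 ± 0.625 after DMSO; adjusted p = 5.29e-15). PGM3, a later enzyme of that pathway, was 2.06-fold higher (adjusted p = 5.12e-14). The 4 synthesis genes called lower were FPGT (1.80-fold), GMDS (1.67-fold), FCSK (1.36-fold) and UGP2 (1.15-fold). Of 11 tested nucleotide sugar transporters, 5 were called higher and 0 lower (edgeR; 0 of the 11 were lower by DESeq2 or at an unadjusted p under 0.05 in edgeR). With library totals or limma, 2 were called lower. SLC35A2, the UDP-galactose transporter, was 1.91-fold higher, SLC35C1, the GDP-fucose transporter, 1.60-fold higher and SLC35A5 1.59-fold higher (adjusted p = 3.3e-11, 7.5e-08 and 4.75e-10).

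N-glycan attachment and Golgi structure genes were also more often higher than lower. Of 18 tested genes of N-glycan attachment and trimming, 11 were called higher and 4 lower (median 0.26 log2). The oligosaccharyltransferase subunits OSTC and STT3A were 2.03-fold higher and 1.72-fold higher (adjusted p = 1.09e-14 and 1.26e-13), and the Golgi mannosidase MAN2A1 was 1.72-fold higher (adjusted p = 9.9e-13). Among the 4 called lower was the subunit STT3B, named after its values were seen. STT3B was 1.44-fold lower (48.8 ± 2.71 FPKM after Japoflavone B and 75.2 ± 3.19 after DMSO, SD, n = 3, adjusted p = 1.03e-09). It was more abundant than STT3A in both groups (29.1 FPKM after Japoflavone B and 18.2 after DMSO for STT3A). Of 17 genes of Golgi retention and tethering, 11 were called higher and 4 lower (median 0.30 log2). The golgins GOLGA2 and GOLGA5 were 2.49-fold higher and 2.34-fold higher (adjusted p = 3.68e-18 and 1.64e-16). TMEM165, a Golgi ion transporter needed for galactosylation, was 2.68-fold lower (3.37 ± 0.0985 FPKM after Japoflavone B and 9.7 ± 0.571 after DMSO; SD, n = 3; adjusted p = 5.73e-16).

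O-glycan core and glycolipid enzymes outside the 77 were more often called lower than higher. Of 23 tested, 10 were called lower and 5 higher (median -0.16 log2), beside 35.4% lower and 34.7% higher among all genes tested. Leaving out 1 library gave 8 to 10 lower and 5 to 6 higher, so the count of lower genes can come near the background share. GCNT3, which makes core 2 and core 4 branches, was 3.25-fold lower (5.85 ± 0.27 FPKM after Japoflavone B and 20.5 ± 0.849 after DMSO; SD, n = 3; adjusted p = 2.48e-19). GCNT2, the I-branching enzyme, was 2.56-fold lower (adjusted p = 1.26e-13). UGCG, the glucosylceramide synthase that precedes B4GALT5 and ST3GAL5, was 1.86-fold higher (11.8 ± 0.195 FPKM after Japoflavone B and 6.8 ± 0.479 after DMSO; adjusted p = 1.37e-11), whereas those 2 genes were lower.

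Genes that remove sugars and genes of mucin-like acceptors were mixed. Of 7 tested glycosidases, 3 were called higher and 3 lower (median -0.09 log2). NEU3, a sialidase of gangliosides, was 2.05-fold higher, the fucosidase FUCA2 1.85-fold lower and the hexosaminidase subunit HEXA 1.30-fold lower (adjusted p = 2.27e-11, 5.49e-13 and 1.9e-06). Of 12 tested mucins and other heavily glycosylated proteins, 7 were called higher and 3 lower (median 0.19 log2). The hyaluronan receptor CD44 was 1.96-fold higher, the complement regulator CD55 1.23-fold higher and the membrane mucin MUC1 2.85-fold lower (adjusted p = 8.79e-16, 1.62e-05 and 2.05e-06). MUC16, a large membrane mucin named after its values were seen, had 1, 1 and 3 counts after Japoflavone B, against 73, 42 and 20 after DMSO. Its level was near the floor in both groups, with a mean of 0.05 ± 0.026 FPKM after DMSO (SD, n = 3). MUC16 passed the filter only through DMSO, where it is high, so its call as lower is a description.

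**Figure D5:**
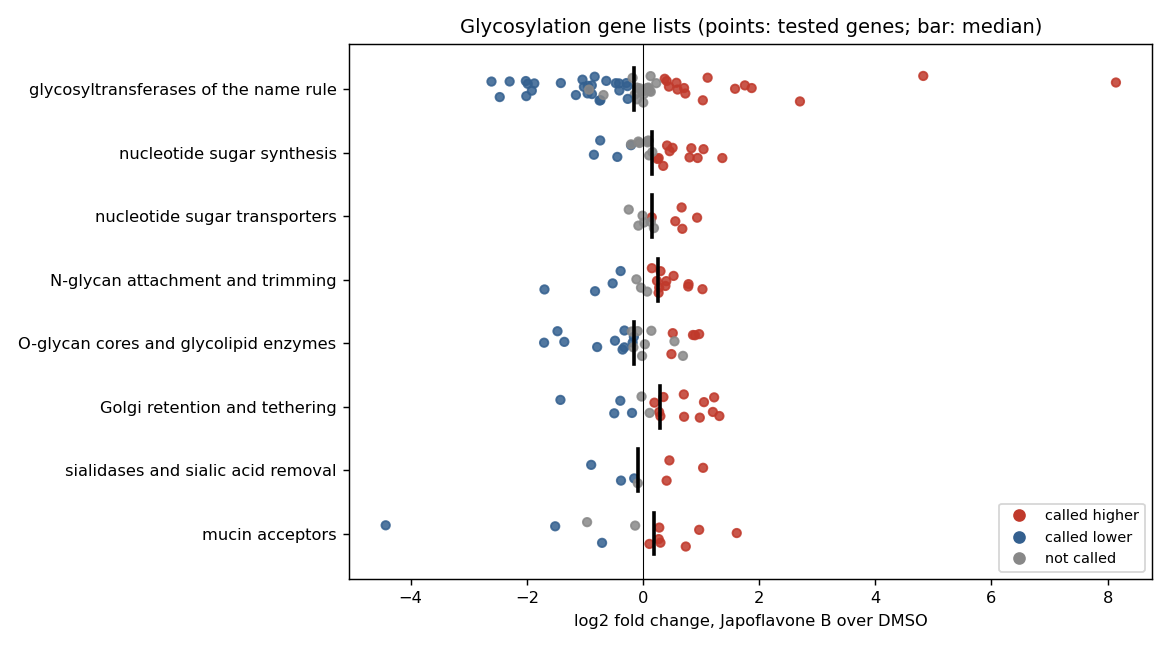
Log2 fold changes, Japoflavone B over DMSO (x axis), of the tested genes in the 77-gene set (top row) and in 7 lists of related genes, 1 point per gene, coloured red for called higher, blue for called lower and grey for not called; black bars are medians. Medians were -0.16 for the glycosyltransferases and between -0.16 and 0.30 for the lists, and FUT3 at the far right has no counts after DMSO.

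Counts of 18 tested members could include reads of a tested gene on the opposite strand, and 6 overlap a tested gene on the same strand. ST3GAL1, ST3GAL5, ST6GALNAC4, ST8SIA4, MGAT5, MGAT5B and GALNT1 are not among them. For the others, the part of such reads in the values was not tested.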

How the data were processed

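RNA was measured in 3 Japoflavone B and 3 DMSO libraries of A549 cells. Gene counts were deposited by the authors as whole numbers, and the authors' FPKM stand beside them in the same table, per the file headers. Tools listed by the submitters' processing notes are HISAT2 2.0.1, cutadapt 1.9.1, HTSeq 0.6.1 and DESeq2, with GRCh38 as the genome. The annotation release and the strand setting of the counting are not given in the sources used here.

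Counts were analysed with edgeR 4.0.16 (quasi-likelihood test, TMM factors) in R 4.3.3, without a replicate block. Genes were tested if filterByExpr kept them (minimum count 10, minimum total 15). All 16082 such genes were adjusted together by Benjamini-Hochberg, with a threshold of 0.05, and the text gives edgeR values unless limma or DESeq2 is named. Standard errors are the log2 fold change divided by the square root of the F statistic. FPKM were used as deposited for levels, shares and ratios, and all members are listed whatever their level. The scripts were tested on simulated data in which few genes changed, in both directions. That test does not cover data like these, where 70.0% of genes tested were called. Same-numbered libraries did not deviate together (correlations 0.01, -0.00 and -0.04), so replicate numbers were not taken as pairs. Intervals and floors cover counting error only. They were computed only for members with at most 3 counts after DMSO in total and more than 3 after Japoflavone B. Untested members that were rare after Japoflavone B, such as ST6GALNAC1 and B3GNT6, are therefore given by counts alone.

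The members and gene lists were chosen with earlier results of these data known. Members at or above 1 FPKM in a group mean, and called members below it, are given with every library's value, and each list is given by its counts and up to 3 genes by adjusted p among those at or above 1 FPKM. Alternatives were limma 3.58.1, DESeq2 1.42.0, other scalings and filters, a replicate block, and leaving out each library. Promoter sequence comes from RefSeq (GRCh38.p14) and shared 50-base words from GENCODE 29 transcripts.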

Additional observations from a re-analysis of the deposited data

How the results depend on the processing

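Of the 58 tested genes, 43 kept their call under each of the 16 alternatives that fitted them. For the mean of at least 2 FPKM, 34 of the 58 were fitted. Direction was compared only where a gene was called, so uncalled genes near 0 could change sign. Of 904 member values, 13 lost the call, 16 gained it and 0 called ones reversed. With a replicate block, 16 genes were called higher and 26 lower, and ST3GAL4 was the gene added; with DESeq2 the counts were also 16 and 26. Library totals gave 15 and 31, and limma 12 and 26 on log2(FPKM + 1) or 12 and 27 on log2(FPKM + 0.1). At a mean of at least 2 FPKM, which tests fewer genes, 6 were called higher and 17 lower, 3 transporters higher, and 4 mucin acceptors higher and 0 lower. Transporters called lower numbered 2 with library totals and with both limma fits, and mucin acceptors called lower numbered 1 with limma on log2(FPKM + 1). Leaving out 1 library gave 15 to 19 members higher and 24 to 27 lower, against 5296 to 5681 and 5345 to 5663 of all genes. Leaving out mitochondrial genes, an alternative added after the data were seen, gave 15 and 26. The 20 tested genes under 1 FPKM held 62 to 561 counts in all, which limits their precision.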
